A study of Homo sapiens with 4 samples.

Results

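The 9 genes described here are transcription factors that mark neuroendocrine and neural lineages and are used to tell subtypes of neuroendocrine prostate cancer (NEPC) apart. They were chosen by name: NEUROD1, INSM1, ONECUT2, POU3F2, FOXA2, NKX2-1, SOX2, PROX1 and MYT1. All 9 were among the 16376 genes of the expression table, and 6 had enough signal to be tested. RNA was sequenced from LASCPC-01 cells, a human NEPC line made with NMYC and an active form of AKT1, so control and treated cells share these transgenes (the labels give the genotype as WT). The 2 control libraries came from cells under PBS and the 2 treated libraries from cells under fluoxetine, a drug that blocks the uptake of serotonin into neurons and is prescribed against depression. The labels give day 3 and no dose, the titles of the treated samples carry the letters PP, and the paper's text gives a different duration from the labels. Nothing says that libraries of 1 group came from separate cultures, so p-values measure only the spread between these libraries, which may be technical.

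When prostate adenocarcinoma turns into NEPC, the luminal programme is lost and a neural programme comes on. Proneural factors of the basic helix-loop-helix class, such as NEUROD1, bind E-boxes and activate further factors such as INSM1, while POU3F2, SOX2, ONECUT2, FOXA2 and PROX1 are studied for their roles in leaving the luminal state. Because different tumours rely on different factors, the level of each factor is itself informative.

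The values are FPKM, fragment numbers corrected for how long a gene is and how deeply its library was sequenced, so levels can be compared between genes. The depth by which the authors divided was 32873603 to 34831389 reads per library. On a gene of 1 kilobase, a single read came to 0.0287 to 0.0304 FPKM. PBS replicate 1 resembled fluoxetine replicate 2 (chi-square of the reads per degree of freedom 6.35) more than it resembled PBS replicate 2 (9.55), and PBS replicate 2 and fluoxetine replicate 1 were the least alike pair (22.8). Relative to each gene's mean over the 4 libraries, long genes tended to be high in PBS replicate 2 (r = 0.19 with log2 length across 12663 genes, which are not independent replicates) and low in fluoxetine replicate 1 (r = -0.28).

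INSM1, PROX1 and SOX2 were well expressed, ONECUT2 and POU3F2 were at a few FPKM, NKX2-1 was below 0.5 FPKM, and NEUROD1, MYT1 and FOXA2 were near 0 in every library. Only some of the factors that mark neuroendocrine lineages were therefore expressed in these cells. From the highest mean level to the lowest, the order was INSM1, PROX1, SOX2, ONECUT2, POU3F2, NKX2-1, NEUROD1, MYT1 and FOXA2. The 4 libraries of INSM1 lay above those of PROX1, and the lowest PROX1 value (15.3 FPKM) lay just above the highest SOX2 value (15.2 FPKM). ONECUT2 and POU3F2 overlapped, as did NEUROD1 with MYT1 and MYT1 with FOXA2. The other neighbours did not overlap in any library.

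Among the genes of the table ranked by mean FPKM, INSM1 stood at rank 2985, PROX1 at 3582 and SOX2 at 4513. ONECUT2 stood at rank 8924 and POU3F2 at 9578, so both were near the middle. NKX2-1 stood at 11932, and NEUROD1, MYT1 and FOXA2 at 13280, 13679 and 14696. Some factors outside the 9 were far higher. POU2F3, the factor of tuft cells, had 191.5 and 207.2 FPKM with PBS and 197.4 and 195.8 FPKM with fluoxetine. It ranked 246.

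**Figure D1:**
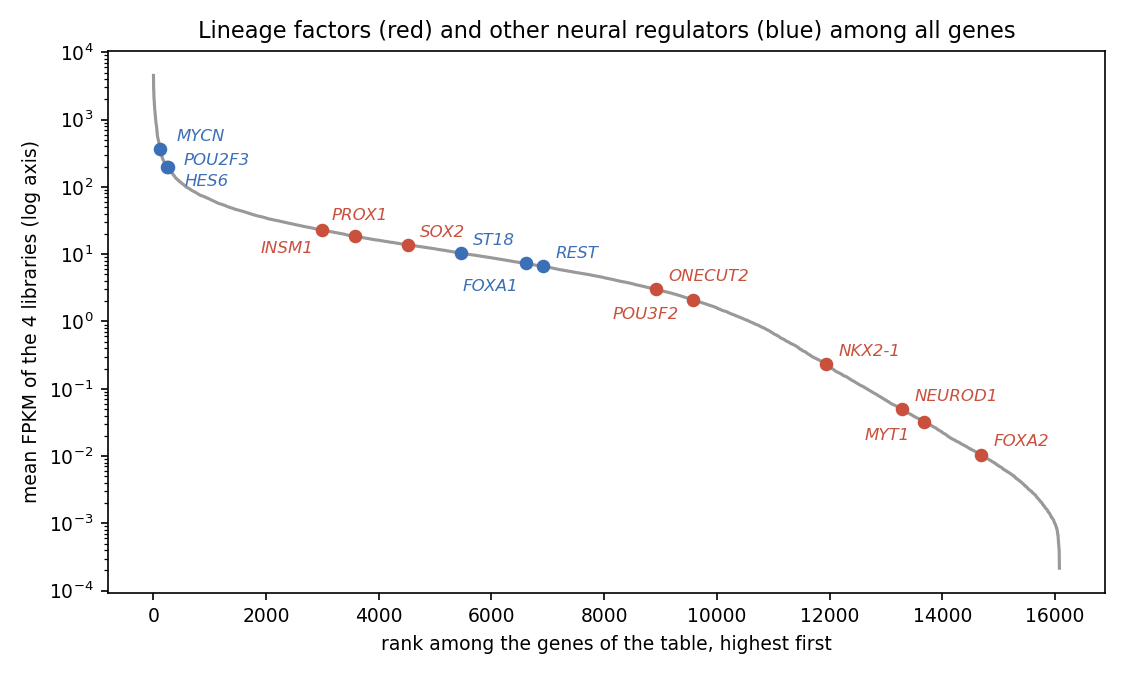
Mean FPKM of the 4 libraries (log axis) against rank for all genes above 0 (grey line), with the 9 factors in red and 6 other regulators in blue. INSM1, at rank 2985, is the highest of the 9, whereas MYCN, POU2F3 and HES6 stand between ranks 113 and 253.

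NEUROD1 drives neuronal differentiation and defines an NEPC subtype of its own. It had 0.0488 and 0.0923 FPKM with PBS and 0.0230 and 0.0345 FPKM with fluoxetine. These values rest on 4 and 8 reads with PBS and on 2 and 3 reads with fluoxetine. The reads in fluoxetine were 0.405 of those in PBS at equal depth, with a 95% exact interval from 0.112 to 1.23 that covers counting error only. A difference in NEUROD1 was not detectable at this depth, although the PBS values were the higher pair. Exons of CERKL, a gene on the same strand, overlap those of NEUROD1 in GENCODE 29, so some of these few reads are uncertain.

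MYT1, a zinc finger factor of neural progenitors and endocrine cells, had 0.00547 and 0.0362 FPKM with PBS and 0.0310 and 0.0568 FPKM with fluoxetine. That is 1 and 7 reads against 6 and 11 reads, and the groups overlapped. The ratio of reads in fluoxetine over PBS was 2.06, with a 95% exact interval from 0.844 to 5.53. FOXA2, a pioneer factor of endoderm that is used as an NEPC marker, had 0 and 2 reads with PBS and 1 read in each fluoxetine library. The 4 reads of FOXA2 in all correspond to 0.0106 FPKM, with a 95% exact Poisson interval from 0.00288 to 0.0271 FPKM. A count of 0 in PBS replicate 1 allows up to 0.0331 FPKM, the worth of 3 reads.

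The sequence just before the start of transcription is given for 4 members, a pair at the bottom of the range (NEUROD1 and MYT1) and a pair expressed above 1 FPKM (SOX2 and ONECUT2), to set their levels beside their promoters. Each line holds the 250 bases before the RefSeq start on GRCh38.p14, 5′ to 3′ on the strand of the gene, with the E-box CANNTG (searched on both strands, where it reads the same) in capitals.
NEUROD1, chr2:181680518-181680767, minus strand: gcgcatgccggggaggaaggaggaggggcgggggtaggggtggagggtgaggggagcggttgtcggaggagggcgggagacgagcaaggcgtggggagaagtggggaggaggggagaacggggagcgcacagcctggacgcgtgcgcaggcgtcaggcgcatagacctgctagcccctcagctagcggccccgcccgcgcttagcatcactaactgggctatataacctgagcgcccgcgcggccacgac
MYT1, chr20:64164202-64164451, plus strand: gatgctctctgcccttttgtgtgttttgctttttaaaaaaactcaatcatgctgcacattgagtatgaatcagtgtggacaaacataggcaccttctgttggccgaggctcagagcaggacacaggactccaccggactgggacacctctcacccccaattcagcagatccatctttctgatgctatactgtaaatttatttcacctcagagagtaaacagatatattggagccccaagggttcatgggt
SOX2, chr3:181711675-181711924, plus strand: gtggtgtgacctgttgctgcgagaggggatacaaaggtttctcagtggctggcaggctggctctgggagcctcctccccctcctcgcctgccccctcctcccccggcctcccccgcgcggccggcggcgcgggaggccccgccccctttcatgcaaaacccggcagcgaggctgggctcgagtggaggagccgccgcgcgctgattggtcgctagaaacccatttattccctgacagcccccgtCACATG
ONECUT2, chr18:57435124-57435373, plus strand: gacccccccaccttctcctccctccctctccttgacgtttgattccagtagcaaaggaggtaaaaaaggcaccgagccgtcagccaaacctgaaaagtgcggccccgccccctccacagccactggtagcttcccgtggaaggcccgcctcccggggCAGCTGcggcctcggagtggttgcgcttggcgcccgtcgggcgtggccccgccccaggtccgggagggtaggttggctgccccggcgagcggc
In GENCODE 29 the genes NEUROD1 and MYT1 reach further upstream, so their windows lie inside the annotated genes. The SOX2 window holds 1 E-box, CACATG, at its last 6 bases, and the ONECUT2 window holds 1, CAGCTG. The windows of NEUROD1 and MYT1 hold none. Of all 35116 such windows, 61.8% hold at least 1 CANNTG and 14.0% hold CAGCTG, so a match is common. CpG pairs numbered 24 in NEUROD1, 20 in SOX2, 20 in ONECUT2 and 2 in MYT1, against a median of 11 over all windows. The window of NEUROD1, a gene near 0, held more CpG pairs than those of the expressed SOX2 and ONECUT2, whereas that of MYT1 held few. Of the 9 factors, 6 had a window in the table, and POU3F2 (22 CpG) and NKX2-1 (18 and 7 CpG in its 2 windows) were the others. The window of POU3F2, a gene also expressed above 1 FPKM, held 0 E-boxes. The NKX2-1 windows held 0 and 1 (CAAGTG). INSM1, PROX1 and FOXA2 had no window, and whether an E-box goes with expression was not tested.

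Fluoxetine changed none of the 6 tested members past the threshold. The test was limma, run on log2(FPKM + 0.1) over the 12663 genes whose mean FPKM was 0.1 or more, a scale on which changes of low genes come out too small. An adjusted p (Benjamini-Hochberg, over all genes tested) under 0.05 was reached by 0.237% of all genes (0.213% lower and 0.0237% higher in fluoxetine) and by 0 of the 6 members in either direction. At an unadjusted p under 0.05 there was 1 member, PROX1, against 8.51% of all genes. Limma voom on the recovered reads, which tested 8 members (NEUROD1 and MYT1 included), also called 0, with PROX1 and ONECUT2 at an unadjusted p under 0.05 against 10.7% of all genes in that fit. The smallest p that an exact permutation test of a single gene can give with 2 libraries against 2 is 0.33. The log2 fold change was below 0 in 4 of the 6 members, with a median of -0.16, against 56.5% of all genes and a median of -0.02. In 1 of the 6, PROX1, the groups did not overlap, against 41.6% of all genes tested (24.8% lower and 16.7% higher in fluoxetine). In bulk RNA, fewer cells with a transcript and less transcript per cell cannot be told apart.

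**Figure D2:**
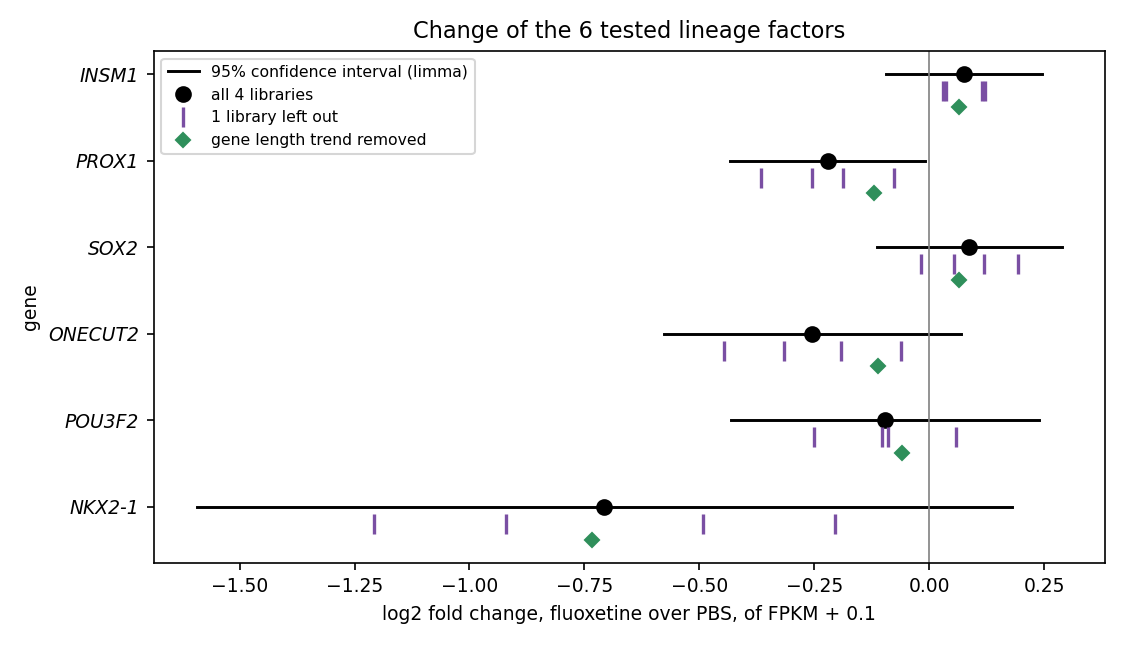
Log2 fold change of fluoxetine over PBS for the 6 tested factors, with the 95% confidence interval from limma (black), the values with 1 library left out (purple) and the value after removal of the gene length trend (green). NKX2-1 has the widest interval, from -1.59 to 0.18, and removal of the length trend moves PROX1 from -0.22 to -0.12 and ONECUT2 from -0.25 to -0.11.

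INSM1, a zinc finger factor of endocrine differentiation, had 22.9 and 21.7 FPKM under PBS and 22.8 and 24.2 FPKM under fluoxetine. The treated and control values overlapped, with means of 22.3 ± 0.856 FPKM (SD, n = 2) and 23.5 ± 1.04 FPKM (SD, n = 2). In limma the change of INSM1 was 0.08 on the log2 scale with a standard error of 0.08 (adjusted p = 0.775). The 95% confidence interval ran from -0.09 to 0.25, or 0.937-fold to 1.19-fold, the narrowest of the 6, on 2142 to 2402 reads per library. Without fluoxetine replicate 2 the change was 0.03, without PBS replicate 2 it was 0.04 and without fluoxetine replicate 1 it was 0.12. In GENCODE 29 (GRCh38), INSM1 consists of 1 exon on chromosome 20, from 20368121 to 20370949.

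SOX2, a factor of stem and neural progenitor cells, had 13.0 and 13.6 FPKM with PBS and 13.1 and 15.2 FPKM with fluoxetine. The higher mean in fluoxetine came from replicate 2, and the groups overlapped. On the log2 scale, limma gave SOX2 a difference of 0.09 with a standard error of 0.09 (adjusted p = 0.784) and a 95% confidence interval from -0.11 to 0.29. Without fluoxetine replicate 2 it was -0.02, so its direction rested on that library. SOX2 likewise consists of 1 exon, on chromosome 3 from 181711924 to 181714436.

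POU3F2 (BRN2), a POU factor of neural development, had 1.93 and 2.41 FPKM with PBS and 2.02 and 2.004 FPKM with fluoxetine. The fluoxetine values lay between the PBS values. The difference was -0.10 on the log2 scale, with a 95% confidence interval from -0.43 to 0.24 (standard error 0.15 and adjusted p = 0.867 in limma). Without PBS replicate 2 it was 0.06.

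PROX1, a homeobox factor of neural, lymphatic and endodermal development, had 19.3 and 20.3 FPKM under PBS and 15.3 and 18.8 FPKM under fluoxetine. The treated values were the lower pair, and replicate 1 was the lowest of all. Means were 19.8 ± 0.661 FPKM (SD, n = 2) for the control and 17.1 ± 2.42 FPKM (SD, n = 2) for the treated libraries. The difference of -0.22 on the log2 scale, with a 95% confidence interval from -0.43 to -0.01, had an unadjusted p of 0.043 and an adjusted p of 0.558 in limma, so PROX1 did not pass. Without fluoxetine replicate 1 it was -0.08, and without fluoxetine replicate 2 it was -0.37. PROX1 is also shown in a heat map that the study drew from these samples, so its direction is not independent evidence.

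ONECUT2, a homeobox factor of liver, pancreas and neural development, had 3.12 and 3.41 FPKM with PBS and 2.37 and 3.12 FPKM with fluoxetine. Fluoxetine replicate 2 (3.122 FPKM) lay just above PBS replicate 1 (3.119 FPKM), so the groups overlapped by a hair, and fluoxetine replicate 1 stood apart below. In limma ONECUT2 differed by -0.25 on the log2 scale, with a standard error of 0.15, an adjusted p of 0.621 and a 95% confidence interval from -0.58 to 0.07. Without fluoxetine replicate 1 it was -0.06, and without fluoxetine replicate 2 it was -0.45.

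PROX1 and ONECUT2 were the longest of the 9 genes, at 9507 and 16433 bases as solved from the values, against 2376 to 5557 bases for the others. The library in which they were low, fluoxetine replicate 1, was also the library in which long genes tended to be low. With that trend taken out (chosen after seeing the data), PROX1 was at -0.12 and ONECUT2 at -0.11 on the log2 scale, while INSM1 and SOX2 were each at 0.06 and NKX2-1 was at -0.73. How far gene length accounts for the lower values was not tested further.

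NKX2-1, a homeobox factor of lung, thyroid and forebrain that also marks small cell carcinomas, had 0.179 and 0.460 FPKM with PBS and 0.109 and 0.181 FPKM with fluoxetine. These are 14 and 38 reads against 9 and 15 reads, and the groups overlapped, with PBS replicate 2 high on its own. Its difference, -0.71 on the log2 scale, had a 95% confidence interval from -1.59 to 0.18 (standard error 0.41 and adjusted p = 0.619 in limma). Without PBS replicate 2 it was -0.20, and without PBS replicate 1 it was -1.21. With a pseudocount of 1 it was -0.20 and with 0.01 it was -0.98. The ratio of reads was 0.448, with a 95% exact interval from 0.264 to 0.740 for counting error only, which leaves out the gap between the 2 PBS libraries. NKX2-1 too is in a heat map of these samples by the study, so its direction is not independent evidence. Its exons share 54 bases with those of AL132857.1 on the same strand. They also overlap those of NKX2-1-AS1 on the opposite strand. Since the strand setting of the counting is not given in the sources used here, reads of NKX2-1 and NKX2-1-AS1 cannot be told apart. PROX1 and PROX1-AS1 overlap in the same way.

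The extremes of the 6 tested members fell mostly in PBS replicate 2 and fluoxetine replicate 1. The highest value was in PBS replicate 2 for 4 members (ONECUT2, POU3F2, NKX2-1 and PROX1) and in fluoxetine replicate 2 for 2 (INSM1 and SOX2). The lowest value was in fluoxetine replicate 1 for ONECUT2, NKX2-1 and PROX1. For POU3F2 and SOX2 it was in PBS replicate 1, and for INSM1 in PBS replicate 2. PBS replicate 2 and fluoxetine replicate 1 were the pair of libraries least alike over all genes. How often each library held the extreme over all genes was not counted.

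Among the paralogs listed for each gene family, 6 of the 9 members were the most highly expressed. INSM1 and PROX1 gave at least 99.9% of the summed FPKM of their families in every library, ONECUT2 gave 99.2% to 99.8% and SOX2 gave 93.5% to 96.0% beside SOX1 and SOX3. For the NKX2 family only NKX2-1 to NKX2-5 were listed. Of these NKX2-1 gave 58.7% to 81.8%, on 9 to 38 reads per library beside 0 to 12 reads of NKX2-4. POU3F2 gave 79.1% to 82.2%, with POU3F3, the next in that family, at 0.457 to 0.528 FPKM. In 3 families another gene was ahead. FOXA1, the luminal pioneer factor, had 6.73 and 7.96 FPKM with PBS and 7.41 and 6.98 FPKM with fluoxetine, and with 4 reads on FOXA2 in all the ratio of FOXA1 to FOXA2 per length was 688 with a 95% exact interval for counting error from 268 to 2525. ST18, the paralog of MYT1, had 10.6 and 11.1 FPKM with PBS and 9.60 and 10.2 FPKM with fluoxetine, and its ratio to MYT1 per length was 316, with a 95% exact interval for counting error from 214 to 489. MYT1 gave 0.0518% to 0.553% of the summed FPKM of its family. NEUROD2 was as low as NEUROD1, between 0.0474 and 0.0803 FPKM, so no NEUROD gene of the table was above 0.1 FPKM in any library.

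Of 20 paralogs listed, 19 were in the table and 5 were tested, of which 0 had an adjusted p under 0.05 from limma and 4 had a log2 fold change below 0 (median -0.06). SOX1 had the smallest p of these, with 0.788 and 0.922 FPKM under PBS against 0.548 and 0.705 FPKM under fluoxetine, or -0.40 on the log2 scale (adjusted p = 0.617). Of 21 other neuroendocrine and neural factors, 14 were tested and 0 passed, with 11 below 0 (median -0.12). In 8 of these 14, values were lower in fluoxetine with no overlap, against 24.8% of all genes tested. The same held for 2 of 5 tested paralogs and, of the lists described below, 2 of 6 programme genes and 2 of 9 antagonists of neural fate. The highest of the 21 factors were MYCN, the transgene of this line, at 323.1 to 386.5 FPKM, POU2F3, and HES6, a proneural cofactor, at 166.6 to 206.9 FPKM. POU2F3 differed by -0.02 on the log2 scale with a standard error of 0.08 (adjusted p = 0.961 in limma). ZIC2, a neural zinc finger factor, had the smallest p of this list, at -0.27 with a standard error of 0.10 (adjusted p = 0.536 in limma). TCF4 and SOX1 are in a heat map of these samples as well, so their direction is not independent evidence either.

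Of 20 genes of the neuroendocrine programme downstream of such factors, 17 were in the table, 6 were tested and 0 passed, with 3 below 0 and 3 above (median -0.04). UCHL1, a neuronal ubiquitin hydrolase, had 434.3 to 512.6 FPKM, and DLL3, an inhibitory Notch ligand, had 177.3 to 201.5 FPKM. NCAM1 had 44.3 to 52.0 FPKM. In contrast, the granule proteins CHGA, CHGB and SCG3 were below 0.1 FPKM in every library. SCG2, another granule protein, was at 0.0625 to 0.189 FPKM, and SYP was at 0.142 to 0.629 FPKM. ENO2, a neuronal enolase, had the smallest p of these genes, at -0.47 on the log2 scale with a standard error of 0.14 (adjusted p = 0.373 in limma). CHGA, CHGB, SCG3, SYP, ENO2 and NCAM1 are shown in the heat map that holds NKX2-1, so their direction is not independent evidence. Of 11 antagonists of neural fate, 9 were tested and 0 passed, with 7 below 0 (median -0.12). ID2 at 62.8 to 73.3 FPKM, ID3 at 56.8 to 64.6 FPKM and the receptor NOTCH1 at 48.2 to 59.5 FPKM were the highest of them, and NOTCH2 had the smallest p, at -0.29 with a standard error of 0.14 (adjusted p = 0.580 in limma). REST, which silences neuronal genes in other tissues, was present at 5.55 to 7.31 FPKM.

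The genes whose pattern over the 4 libraries was most like that of a member were found from the root mean square difference of their log2(FPKM + 0.1) deviations. For INSM1 these were BRAP and BRD1 (differences of 0.0071 and 0.0074), for SOX2 PGS1 and FOXO3B (0.0082 and 0.010), and for POU3F2 OVOL1 and CCDC187 (0.012 and 0.014). For PROX1 they were ARID1B and FGF11 (0.0047 and 0.0058) and for ONECUT2 EPAS1 and PHOSPHO2 (0.0069 and 0.0098). NKX2-1 had no such close match, with HEY1 at 0.096 and CCDC166 at 0.11. With 4 libraries and 12663 genes, close matches are easily found, and they are given as a description.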

How the data were processed

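LASCPC-01 RNA was sequenced in 2 PBS and 2 fluoxetine libraries, and the authors deposited 1 FPKM value per gene and library. The submitters' processing notes name fastp, HISAT2, HTSeq and GRCh38, with no versions, and the annotation is not given in the sources used here. The paper's methods and the labels name different library kits. The paper's own test needs counts, so limma 3.58.1 in R 4.3.3 (variance trend, log2(FPKM + 0.1), mean FPKM of at least 0.1, Benjamini-Hochberg adjustment) was the main test. Groups came from the treatment labels and replicate numbers from the titles.

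The members and gene lists were chosen with earlier results of these data known. Named were all members, and of each other list the 3 genes with the highest mean, any with an adjusted p under 0.05 and the one with the smallest p, and for each tested member the 2 genes most alike. TCF4, REST, POU3F3, NEUROD2, KLK2, SCG2 and the markers near 0 were named after their values were seen. Some genes that the rule names are not reported here.

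Whole reads were solved from the FPKM. Depths were the values that gave genes whole lengths (97.5% of 400 genes), and each gene then took the smallest length of at least 200 bases with whole reads in all libraries, within 0.003 reads plus rounding. This solved 100% of the values above 0, and true reads can be multiples of those given. Read intervals are exact (Clopper-Pearson or Poisson, 95%), and floors are 3 reads. PCR copies were not told apart. Scripts were tested on simulated data. Locations are from GENCODE 29. Python 3.11.15 ran scipy 1.17.1, numpy 2.4.6, matplotlib 3.10.9 and pandas 2.3.3. The alternatives were other pseudocounts, filters, scalings and variance models, the replicate block, each library left out and, chosen after seeing the data, removal of the gene length trend (lowess, span 0.3) and limma voom on the reads of genes with at least 10 reads in all.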

Additional observations from a re-analysis of the deposited data

How the results depend on the processing

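No member was called under any alternative run, and the median log2 fold change of the members stayed below 0, between -0.27 (rescaled to TPM) and -0.07 (without fluoxetine replicate 1). INSM1 stayed above 0 and PROX1, ONECUT2 and NKX2-1 below 0 in each alternative that tested them, whereas POU3F2 turned to 0.058 without PBS replicate 2 and SOX2 to -0.019 without fluoxetine replicate 2. With each library left out in turn, the log2 fold change of POU3F2 ranged from -0.25 to 0.058 and that of SOX2 from -0.019 to 0.19. The count of members with no overlap between the groups was 2 of 9 without the filter (37.5% of all genes), 2 of 6 with median centring (41.2%), 2 of 8 with limma voom (40.9%), 3 of 7 after rescaling to TPM (42.8%), and 3 to 5 of 6 with 1 library left out (66.9% to 75.0% of all genes), where 1 group holds a single library.

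Over all genes, 30 were called (27 lower). With the replicate number as a block, 64 were called. Once group means were taken off, libraries with the same number correlated at 0.035 over all genes tested, at 0.058 for those of at least 1 FPKM, at 0.10 for those of at least 10 FPKM and at 0.46 over the 6 tested members, and the labels give nothing but the number to pair them. The count was 16 with quantile normalization, 57 with limma voom, 0 without the filter (1175 at an unadjusted p under 0.05) and 0 without the variance trend (933), and with 1 library left out it was 2 to 12, where the lone library is assumed to vary like the others. Depth limits NEUROD1, MYT1 and FOXA2, with 17, 25 and 4 reads in all.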

Other observations

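Of 7 luminal prostate markers, 5 were tested and 0 passed in limma, 2 below 0 and 3 above (median log2 fold change 0.06). TMPRSS2 (13.5 to 14.8 FPKM) and HOXB13 (2.72 to 3.58 FPKM) were the highest of them. KLK3 had the smallest p of these, at 0.56 on the log2 scale with a standard error of 0.48 (adjusted p = 0.728 in limma). It rested on 10 and 2 reads with PBS against 7 and 17 reads with fluoxetine. KLK2 went the other way, at -0.51 with a standard error of 0.46 (adjusted p = 0.737 in limma). It had 12 and 19 reads with PBS against 3 and 15 reads with fluoxetine. Basal markers summed to 0.0577 to 0.127 FPKM over KRT15, KRT5 and TP63, and 0 were tested. Of 5 fibroblast markers 2 were tested, with COL1A1 highest at 1.83 to 2.75 FPKM. Of 3 endothelial and 4 leukocyte markers 1 each was tested, VWF and CD68. VWF was at 0.0792 to 0.147 FPKM, CD68 was at 2.74 to 3.97 FPKM and PTPRC was at or below 0.0318 FPKM. None of these had an adjusted p under 0.05 from limma, and their part in the values of the lineage factors was not tested.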
